A study of Rattus norvegicus with 9 samples.

Results

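Heterotrimeric G proteins, the phospholipase C beta enzymes they activate, the RGS proteins that switch them off, and the kinases and β-arrestins that silence their receptors were followed in cultured rat chondrocytes, the cells of cartilage. The members were the rows of the gene table whose symbols match the naming patterns Gna, Gnb1 to Gnb5, Gng, Rgs, Plcb1 to Plcb4, Grk1 to Grk7 and Arrb1 or Arrb2, each pattern ending in a number or, for Gna, in numbers or letters. The rule uses symbols alone. It gave 62 of the 18924 genes in the table, under 61 symbols, since Gnas has 2 rows.

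The cells were primary chondrocytes of SD rats at passage 1 or 2, kept routinely in DMEM with 10% FBS, and all were treated for 24 h. The RP group received rat plasma, the RPT group rat plasma with thrombin, and the RPTi group rat plasma with thrombin and an inhibitor, with 3 mRNA sequencing libraries in each. The labels give neither the name of the inhibitor nor any dose, nor the age or sex of the animals, nor whether cells of several animals were pooled. Nor do they state whether the 3 libraries in a group stem from different animals or cultures, so each p-value reflects variation among these libraries alone, which may be technical. All groups carry plasma, and the groups analysed here include none with inhibitor but no thrombin, so RPTi against RP combines both agents.

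A heterotrimeric G protein is an α subunit with a tightly bound βγ pair. An activated receptor makes the α subunit exchange GDP for GTP, and the α subunit and the βγ pair then act separately: Gαs stimulates and Gαi inhibits adenylyl cyclases, and Gαq and Gα11 activate phospholipase C beta, which releases inositol trisphosphate and diacylglycerol. RGS proteins speed up GTP hydrolysis by the α subunit, while receptor kinases phosphorylate active receptors and β-arrestins bind the phosphorylated receptor. The thrombin receptor PAR1, encoded by F2r, couples to the Gi, Gq and G12 classes.

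The libraries held 31877265 to 43962783 counted reads, so that 1 read was worth 0.0226 to 0.0323 CPM (counts scaled here to library size with TMM factors). After genes with low counts were removed, 13856 genes were tested with edgeR's quasi-likelihood test, and a gene was called at a Benjamini-Hochberg adjusted p below 0.05 over all of them. Adjusted p-values are from that test on all 9 libraries unless a left-out library or another setting is named beside them. Fold changes and their standard errors (SE) are on the log2 scale, apart from the 1.5-fold threshold. The chondrocyte label was checked against 11 cartilage genes, all detected, whose summed level spanned 48117 to 49134 CPM among the RP libraries, 30118 to 31932 CPM among RPT and 74257 to 80683 CPM among RPTi. All 11 of these genes were called lower in RPT than in RP (15.2% of all genes were), and all 11 higher in RPTi than in RPT (20.4%). In RPTi against RP, 9 were called higher (11.9%) and none lower. The part of these shifts in the members' differences was not tested. In bulk RNA, fewer cells of a type and less RNA per cell cannot be told apart.

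Of the 62 members, 50 passed the filter. Over the 3 groups, 25 of the 50 (50%) were called by an F test, against 46.7% of all tested genes. Between RPT and RP, 14 of 50 were called (28%, against 28.9% of all genes), 10 higher in RPT (13.6% of all genes were higher) and 4 lower (15.2% of all genes). Between RPTi and RPT, 24 were called (48%, against 41.5%), 8 higher in RPTi (20.4%) and 16 lower (21.1%). Between RPTi and RP, 15 were called (30%, against 24.2%), 4 higher in RPTi (11.9%) and 11 lower (12.3%). Counted in either direction, the shares of members called were thus close to those of all genes in each comparison. The split by direction was less alike. Of the members called, 71.4% were higher in RPT than in RP, against 47.2% of all called genes. In RPTi, 33.3% were higher than in RPT, against 49.2%, and 26.7% were higher than in RP, against 49.1%. This split was not tested. The 10 higher in RPT became 6 without RPT replicate 2, and the 8 higher in RPTi than in RPT became 5 without RPTi replicate 1 or without RPTi replicate 3. With libraries scaled by their totals alone, 5 members were higher and 18 lower in RPTi than in RPT.

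Calls with a change of at least 1.5-fold numbered 5 of 50 between RPT and RP (10.7% of all genes), 15 between RPTi and RPT (18.2%) and 6 between RPTi and RP (8.22%). The median log2 fold change of the tested members was 0.03, -0.07 and -0.07 in these 3 comparisons, and that of all genes was -7e-04, -0.0083 and -0.0064. The first and the second comparison share the RPT libraries, so a gene whose RPT libraries lie high is higher in the one and lower in the other, and the values of each are given side by side. The first and the third share the RP libraries, and the second and the third share the RPTi libraries.

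**Figure D1:**
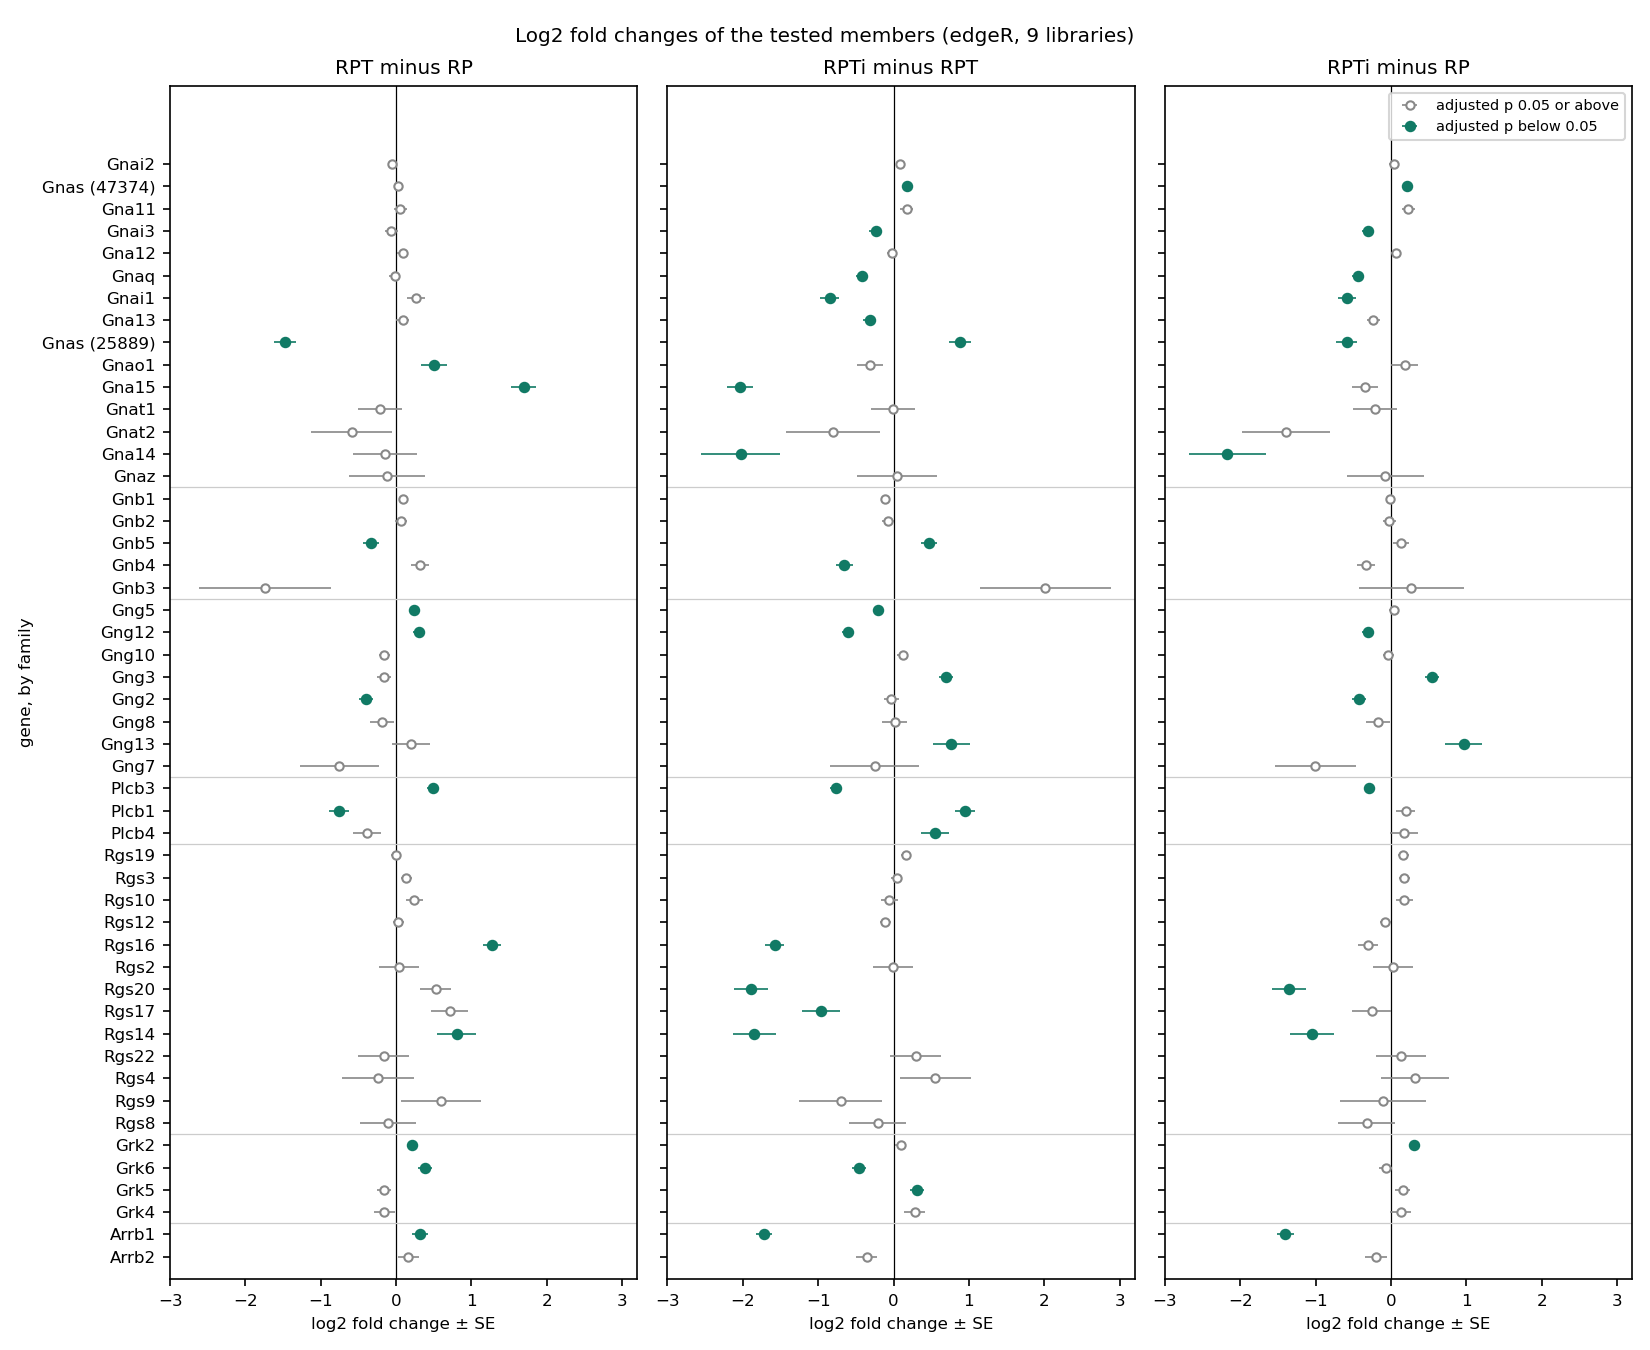
Log2 fold change with its SE (x axis) for each of the 50 tested members (y axis, by family and by level), with 1 panel per comparison. Filled points have an adjusted p below 0.05. The 2 Gnas rows carry the last digits of their identifiers, and among the called members of the left panel Gna15 (1.69) and Rgs16 (1.27) lie farthest right and the scarce Gnas row (-1.47) farthest left.

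Gna15 and Rgs16 had the largest called rises from RP to RPT, and Plcb1 fell in that comparison while its relative Plcb3 rose. Their promoters are shown so that genes moving the same way and genes of a family moving in opposite ways can be read beside each other. Each line holds the 250 bases before the annotated start, 5′ to 3′ on the gene's strand, from RefSeq on GRCr8: Gna15 at chr7:8835374-8835623 (plus strand), Rgs16 at chr13:68437870-68438119 (plus), Plcb3 at chr1:213589436-213589685 (minus) and Plcb1 at chr3:142512515-142512764 (plus). Capitals mark a match to the STAT-type motif TTCNNNGAA, which starts 141 bases before the start of Plcb1.
Gna15: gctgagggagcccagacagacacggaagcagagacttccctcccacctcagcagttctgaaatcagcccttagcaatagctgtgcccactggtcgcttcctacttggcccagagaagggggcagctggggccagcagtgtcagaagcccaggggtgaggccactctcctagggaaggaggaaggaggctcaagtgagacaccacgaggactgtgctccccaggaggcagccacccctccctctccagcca
Rgs16: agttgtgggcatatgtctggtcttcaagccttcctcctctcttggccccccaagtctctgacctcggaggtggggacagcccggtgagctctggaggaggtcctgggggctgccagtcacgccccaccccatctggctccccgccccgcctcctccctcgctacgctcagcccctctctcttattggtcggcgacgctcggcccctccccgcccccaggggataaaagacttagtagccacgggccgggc
Plcb3: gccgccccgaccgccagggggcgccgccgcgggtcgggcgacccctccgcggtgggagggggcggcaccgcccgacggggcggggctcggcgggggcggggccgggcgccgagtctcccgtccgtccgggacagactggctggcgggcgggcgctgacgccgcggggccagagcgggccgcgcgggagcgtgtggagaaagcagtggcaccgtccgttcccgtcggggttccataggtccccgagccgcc
Plcb1: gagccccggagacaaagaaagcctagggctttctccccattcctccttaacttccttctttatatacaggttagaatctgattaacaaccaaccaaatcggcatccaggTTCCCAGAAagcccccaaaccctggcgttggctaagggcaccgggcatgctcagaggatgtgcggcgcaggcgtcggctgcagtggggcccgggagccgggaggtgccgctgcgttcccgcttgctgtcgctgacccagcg

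Of the 49 symbols tested, 38 had an entry in that promoter table. The windows were searched on both strands for 4 motifs: AP-1 (TGANTCA), ETS (CCGGAA), STAT (TTCNNNGAA) and CRE (TGACGTCA). AP-1 letters stood in 4 of the 38 windows (Gnb2, Gng12, Rgs12 and Rgs17) and in 6.34% of all 33469 promoter windows of that length. ETS letters stood in 2 (Gng5 and Rgs19; 12.6% of all windows), STAT letters in 2 (Gng10 and Plcb1; 7.67%) and CRE letters in 1 (Gnao1; 1.59%). The windows of Gna15, Rgs16 and Plcb3 held none of the 4 motifs. A match describes letters in this window and says nothing of binding.

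Levels between genes were compared per length, as the deposited FPKM. The most abundant member was Gnai2, which encodes the inhibitory subunit Gαi2, at a mean of 361 FPKM over the 9 libraries. The β subunits Gnb1 (217 FPKM) and Gnb2 (194 FPKM) followed, then the stimulatory α subunit Gnas (111 FPKM) and the γ subunits Gng5 (92.2 FPKM), Gng12 (78.2 FPKM) and Gng10 (64.0 FPKM). Gna11, Gnai3, Gna12 and Gnaq lay together at 45.9, 45.8, 44.6 and 43.2 FPKM. The lowest tested member was Gng7, at 0.0718 FPKM.

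**Figure D2:**
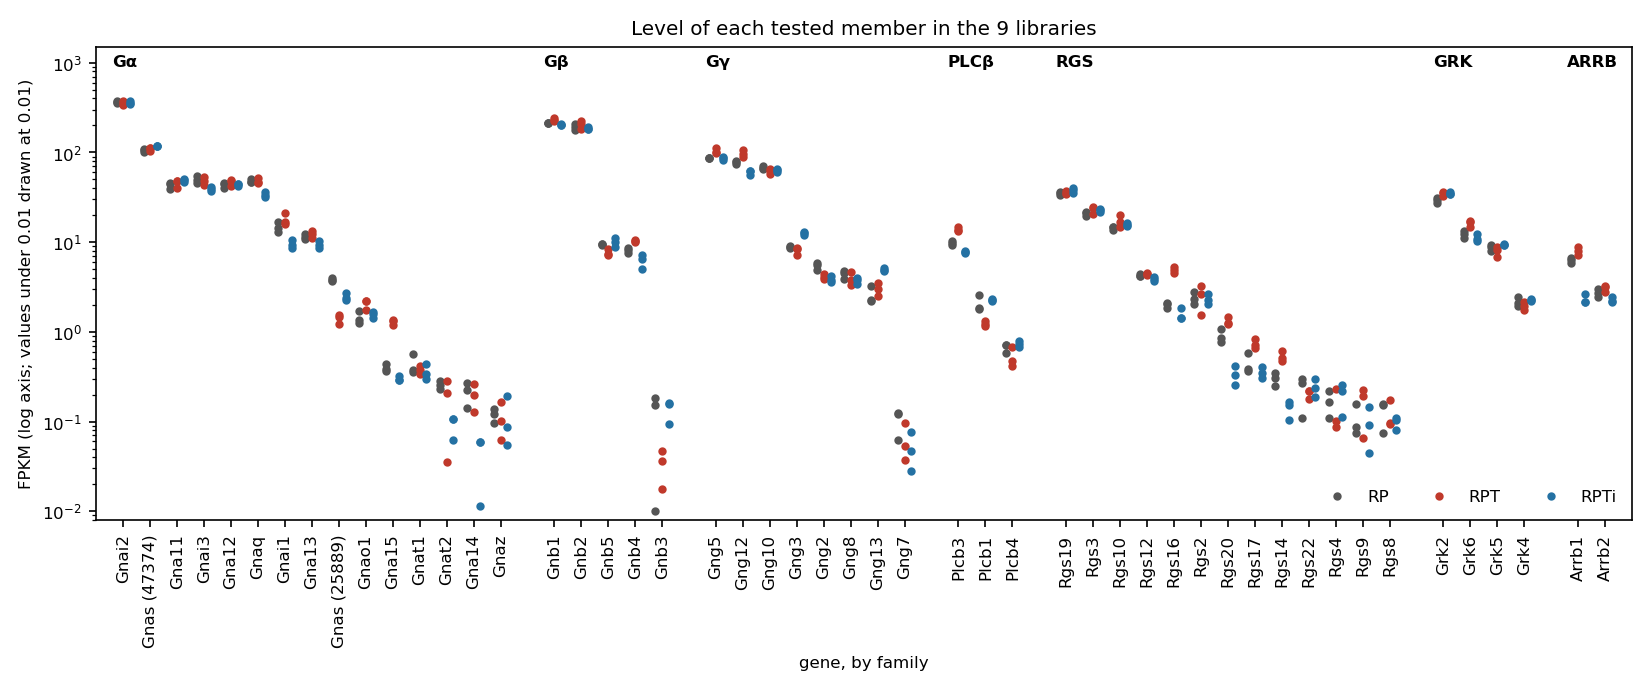
FPKM of each tested member (y axis, log scale, with values under 0.01 drawn at 0.01) by gene and family (x axis), with 1 point per library in the RP, RPT and RPTi groups. Gnai2 stands highest at a mean of 361 FPKM, and within each family a few genes hold most of the signal.

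Summed by coupling class, the Gi class held 62.3 to 63.3% of the α-subunit FPKM in RP, 61.1 to 62.2% in RPT, then 61.1 to 62.0% in RPTi. The Gs class held 15.6 to 16.3% among RP libraries, 15.7 to 16.3% in RPT, then 17.7 to 18.3% in RPTi. Its RPTi libraries lay above all others. The Gq class held 13.3% in each RP library, 13.5 to 13.9% in RPT, then 12.3 to 12.6% in RPTi. The G12 class held 7.76 to 8.06%, 8.26 to 8.75% and 7.91 to 7.98% in the same order. These shares moved by at most a few percentage points between groups.

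The 12 members below the filter had between 1 and 40 reads over the 9 libraries together, and at most 11 in any library. They were the olfactory-type Gαs relative Gnal (30 reads), the taste-cell transducin Gnat3 (1), the γ subunits Gng4 (23), Gng11 (14) and Gng14 (2), Rgs1 (3), Rgs5 (3), Rgs6 (8) and Rgs7 (40), Plcb2 (28), the receptor kinases Grk1 (5) and Grk3 (11). A count of 0 in a library allows up to 3 reads, or 0.0678 to 0.0969 CPM, for counting error only.

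Among the Gq class, Gna15 rose with thrombin and fell when the inhibitor was added. This gene encodes Gα15, which couples to many kinds of receptor and is best known from blood cells. It measured 1.47, 1.79 and 1.56 CPM in RP, 5.26, 5.45 and 4.85 CPM in RPT, and 1.22, 1.36 and 1.20 CPM in RPTi. The RPT libraries lay far above all others, and the lowest RP library lay above the highest RPTi library. The log2 fold change was 1.69 (SE 0.17, adjusted p = 8.78e-06) from RP to RPT, -2.04 (SE 0.17, adjusted p = 9.28e-07) from RPT to RPTi and -0.35 (SE 0.18, adjusted p = 0.176) from RP to RPTi. Macrophage and leukocyte markers were also highest in RPT, with a summed level over 6 genes of 24.3 to 28.5 CPM in RP, 45.3 to 46.8 CPM in RPT and 25.3 to 29.5 CPM in RPTi. Of the 4 of these tested, Cd14 and Cd68 rose and Csf1r fell from RP to RPT, Ptprc and Adgre1 had at most 5 reads in any library, and the part of such cells in the Gna15 result was not tested.

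Of the abundant Gq members, Gnaq fell in the RPTi group and Gna11 did not pass the test. Gnaq, which encodes Gαq, measured 62.3, 62.5 and 66.8 CPM in RP, 60.9, 59.99 and 68.5 CPM in RPT, and 44.7, 46.3 and 50.1 CPM in RPTi. Every RPTi library was thus below every RP and RPT library, with a log2 fold change of -0.42 (SE 0.07, adjusted p = 0.000546) from RPT and -0.44 (SE 0.07, adjusted p = 0.000904) from RP. Gna11, whose product Gα11 is a close relative of Gαq, measured 58.5, 60.1 and 50.6 CPM in RP, 60.9, 62.5 and 52.7 CPM in RPT, and 66.6, 69.0 and 63.3 CPM in RPTi. It did not pass the test, at a log2 fold change of 0.18 (SE 0.09, adjusted p = 0.119) from RPT to RPTi and 0.23 (SE 0.09, adjusted p = 0.0665) from RP to RPTi, and the latter passed without RPT replicate 3 (adjusted p = 0.0309). It also passed with DESeq2, in the 2 groups alone and with the replicate block (adjusted p 0.00458 to 0.04), and the former with the block (adjusted p = 0.013). Gna14, another relative, was scarce, with 32, 13 and 23 reads in RP, 20, 11 and 23 in RPT and 6, 1 and 6 in RPTi. It fell by 2.03 from RPT to RPTi (SE 0.52, adjusted p = 0.0075) and fell by 2.17 from RP to RPTi (SE 0.51, adjusted p = 0.00837).

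In the Gi class, the dominant Gnai2 measured 795, 831 and 772 CPM in RP, 762, 806 and 738 CPM in RPT, and 812, 852 and 793 CPM in RPTi. The groups overlapped, and its log2 fold changes were -0.06 (adjusted p = 0.486), 0.09 (adjusted p = 0.208) and 0.03 (adjusted p = 0.696), each with an SE of 0.06. The difference between RPTi and RPT passed with the replicate block (adjusted p = 0.0425). Gnai1, a less abundant Gαi, measured 20.8, 18.9 and 23.8 CPM in RP, 23.4, 22.8 and 30.2 CPM in RPT, and 13.0, 13.8 and 15.6 CPM in RPTi. The RPTi libraries lay below all others, with a log2 fold change of -0.85 (SE 0.12, adjusted p = 0.000132) from RPT and -0.58 (SE 0.12, adjusted p = 0.00454) from RP. RP and RPT overlapped, at a log2 fold change of 0.26 (SE 0.12, adjusted p = 0.124), which passed with the replicate block (adjusted p = 0.015).

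Gnai3, the third Gαi, was also lower in RPTi, with a log2 fold change of -0.24 from RPT (adjusted p = 0.0353) and -0.30 from RP (adjusted p = 0.0183), but neither call held against every single library. The first was lost without RP replicate 1, RPT replicate 1 or 3, or any RPTi library (adjusted p 0.0502 to 0.123), and the second without RP replicate 3 or RPTi replicate 1 or 2 (adjusted p 0.0553 to 0.0769). Gnao1, which encodes the Gαo best known from neurons, was called higher in RPT at a log2 fold change of 0.50 (SE 0.17, adjusted p = 0.0474), from a mean of 1.68 FPKM over all libraries. That call was lost without any of 7 libraries, all but RP replicate 1 and RPT replicate 1 (adjusted p 0.0585 to 0.155). It was also lost without the low-count filter, with only these 2 groups fitted and with the replicate block (adjusted p 0.0545 to 0.0675). Gnat1, Gnat2 and Gnaz, the transducins of photoreceptors and Gαz, were at 0.388, 0.174 and 0.113 FPKM and did not pass the test in any comparison. Leaving out RPT replicate 1 brought Gnat2 under the threshold between RPTi and RP (adjusted p = 0.0401), as did fitting these 2 groups alone (adjusted p = 0.032).

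The Gs class rests on the 2 rows named Gnas. The Gnas locus has several alternative first exons, some used by transcripts that encode other proteins, and the library kit named in the labels does not mark strand, so reads of overlapping transcripts could be split between the rows and both are uncertain. The abundant row (ENSRNOG00000047374) measured 382, 378 and 356 CPM in RP, 382, 393 and 362 CPM in RPT, and 428, 434 and 430 CPM in RPTi. RPTi lay above both other groups, at a log2 fold change of 0.18 from RPT (SE 0.05, adjusted p = 0.0147) and 0.21 from RP (SE 0.05, adjusted p = 0.0124). The call against RP was lost without RP replicate 3 (adjusted p = 0.0553), and that against RPT with libraries scaled by totals alone or on log2 FPKM (adjusted p 0.08 to 0.0926).

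The scarce row (ENSRNOG00000025889) behaved differently, at 6.20, 6.55 and 5.996 CPM in RP, 2.30, 2.48 and 1.98 CPM in RPT, and 4.56, 4.07 and 3.82 CPM in RPTi. The 3 groups did not overlap, with RP highest and RPT lowest. It fell by 1.47 from RP to RPT (SE 0.15, adjusted p = 9.7e-06), rose by 0.88 from RPT to RPTi (SE 0.15, adjusted p = 0.000383) and differed by -0.59 between RPTi and RP (SE 0.14, adjusted p = 0.00848). At 2.57 FPKM over all libraries, it was far below the abundant row at 111 FPKM.

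In the G12 class, Gna12 measured 153, 159 and 139 CPM in RP, 163, 171 and 146 CPM in RPT, and 159, 162 and 152 CPM in RPTi. The groups overlapped, with log2 fold changes of 0.09, -0.02 and 0.07 (SE 0.07 in each, adjusted p = 0.409, 0.846 and 0.546). Gna13, the other member, was at 11.05 FPKM and fell by 0.32 from RPT to RPTi (SE 0.08, adjusted p = 0.00782). Its difference between RPTi and RP was -0.23 (SE 0.08, adjusted p = 0.0584), which passed without RP replicate 2, RPT replicate 2 or 3, or RPTi replicate 3 (adjusted p 0.0348 to 0.0462). It also passed under 7 other settings (adjusted p 0.00747 to 0.047): DESeq2, both log2 FPKM fits, the replicate block, the 2 groups alone, totals without TMM and an unfiltered table.

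Among the 5 β subunits, neither of the abundant pair was called. Gnb1 measured 321, 321 and 320 CPM in RP, 331, 342 and 357 CPM in RPT, and 324, 319 and 312 CPM in RPTi. All RPT libraries lay above the others, but the log2 fold changes were only 0.10 (SE 0.05, adjusted p = 0.178) from RP to RPT and -0.11 (SE 0.05, adjusted p = 0.104) from RPT to RPTi, the latter passing with libraries scaled by totals alone, on log2 FPKM or with the replicate block (adjusted p 0.00724 to 0.0445). Gnb2 had log2 fold changes of 0.06, -0.08 and -0.02, with adjusted p = 0.63, 0.471 and 0.891. The scarce Gnb3 (0.0942 FPKM) had 14, 0 and 10 reads in RP, 3, 2 and 1 in RPT and 6, 9 and 10 in RPTi. It passed the test between RPT and RP and between RPTi and RPT in 1 of the alternatives run, when RP replicate 2, with its count of 0, was left out (adjusted p = 0.021 and 0.0194).

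From RPT to RPTi, Gnb4 fell and Gnb5 rose. Gnb4 measured 11.4, 10.7 and 11.9 CPM in RP, 14.2, 13.9 and 14.2 CPM in RPT, and 9.46, 10.3 and 7.26 CPM in RPTi. The 3 groups did not overlap, and it fell by 0.65 from RPT to RPTi (SE 0.12, adjusted p = 0.000654). Its differences of 0.32 from RP to RPT (SE 0.11, adjusted p = 0.0549) and -0.33 from RP to RPTi (SE 0.12, adjusted p = 0.0559) stood just outside the threshold. The first passed without RPTi replicate 2 or 3 (adjusted p 0.0201 to 0.0439) and the second without RPTi replicate 2 (adjusted p = 0.0281). Each also passed under 5 other settings: the first with DESeq2, its size factors, library totals alone, voom and the 2 groups alone (adjusted p 0.0237 to 0.0492), and the second with library totals alone, voom, both log2 FPKM fits and the replicate block (adjusted p 0.029 to 0.0482). Gnb5 (9.06 FPKM), the β subunit that pairs with the R7 family of RGS proteins, fell by 0.33 from RP to RPT (SE 0.11, adjusted p = 0.0319) and rose from RPT to RPTi by 0.47 (SE 0.11, adjusted p = 0.00328). The former call was lost without any RP library or RPT replicate 1 or 2 (adjusted p 0.0655 to 0.119).

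The γ subunits fall into a few abundant genes and several scarce ones. Gng5 measured 120, 122 and 119 CPM in RP, 133, 140 and 153 CPM in RPT, and 125, 128 and 116.7 CPM in RPTi. RPT lay above both other groups, by 0.24 from RP (SE 0.06, adjusted p = 0.0128), and it fell by 0.21 from RPT to RPTi (SE 0.06, adjusted p = 0.0205). The latter call was lost without RPT replicate 3 or RPTi replicate 3 (adjusted p 0.0538 to 0.086). Gng12 measured 56.0, 54.6 and 52.3 CPM in RP, 66.4, 61.4 and 73.3 CPM in RPT, and 41.4, 45.3 and 45.5 CPM in RPTi. Its 3 groups did not overlap, with a rise of 0.30 to RPT (SE 0.08, adjusted p = 0.0099) and a log2 fold change of -0.60 from RPT to RPTi (SE 0.08, adjusted p = 4.12e-05). Its difference of -0.30 between RPTi and RP (SE 0.08, adjusted p = 0.0128) was lost without RP replicate 1 or RPTi replicate 1 (adjusted p 0.0582 to 0.0627).

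Gng3 and Gng13 were highest in RPTi. Gng3, a γ subunit best known from neurons, measured 10.2, 9.98 and 10.4 CPM in RP, 9.31, 9.87 and 8.20 CPM in RPT, and 15.1, 15.4 and 14.1 CPM in RPTi. Every RPTi library lay above every other, with a rise of 0.70 from RPT (SE 0.09, adjusted p = 5.36e-05) and 0.54 from RP (SE 0.09, adjusted p = 0.000901). Gng13, known from taste and olfactory cells, measured 1.15, 0.774 and 0.792 CPM in RP, 1.02, 1.24 and 0.884 CPM in RPT, and 1.73, 1.87 and 1.76 CPM in RPTi. It also lay above both groups in RPTi, by 0.97 from RP (SE 0.24, adjusted p = 0.0122) and 0.77 from RPT (SE 0.24, adjusted p = 0.0232), and the latter call was lost without RPT replicate 1 or 3 or any RPTi library (adjusted p 0.0506 to 0.0756). The summed level of neuron markers gave no such order, at 0.953 to 1.09 CPM in RP, 0.628 to 1.42 CPM in RPT and 0.581 to 1.14 CPM in RPTi. Snap25, Stmn2 and Rbfox3 had at most 10 reads in any library. Of the 2 markers tested, Nefl was called lower in RPTi than in RP (log2 fold change -1.85) and the other was not called (0.67). The part of such cells in the Gng3 and Gng13 results was not tested.

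Gng2 was at 4.48 FPKM and fell in both thrombin groups against RP, with log2 fold changes of -0.40 in RPT (SE 0.09, adjusted p = 0.00626) and -0.43 in RPTi (SE 0.09, adjusted p = 0.00512). Gng10, Gng8 (4.01 FPKM) and Gng7 passed no test. Gng10 came under the threshold between RPT and RP without RPT replicate 3 (log2 fold change -0.20, adjusted p = 0.0472).

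**Figure D3:**
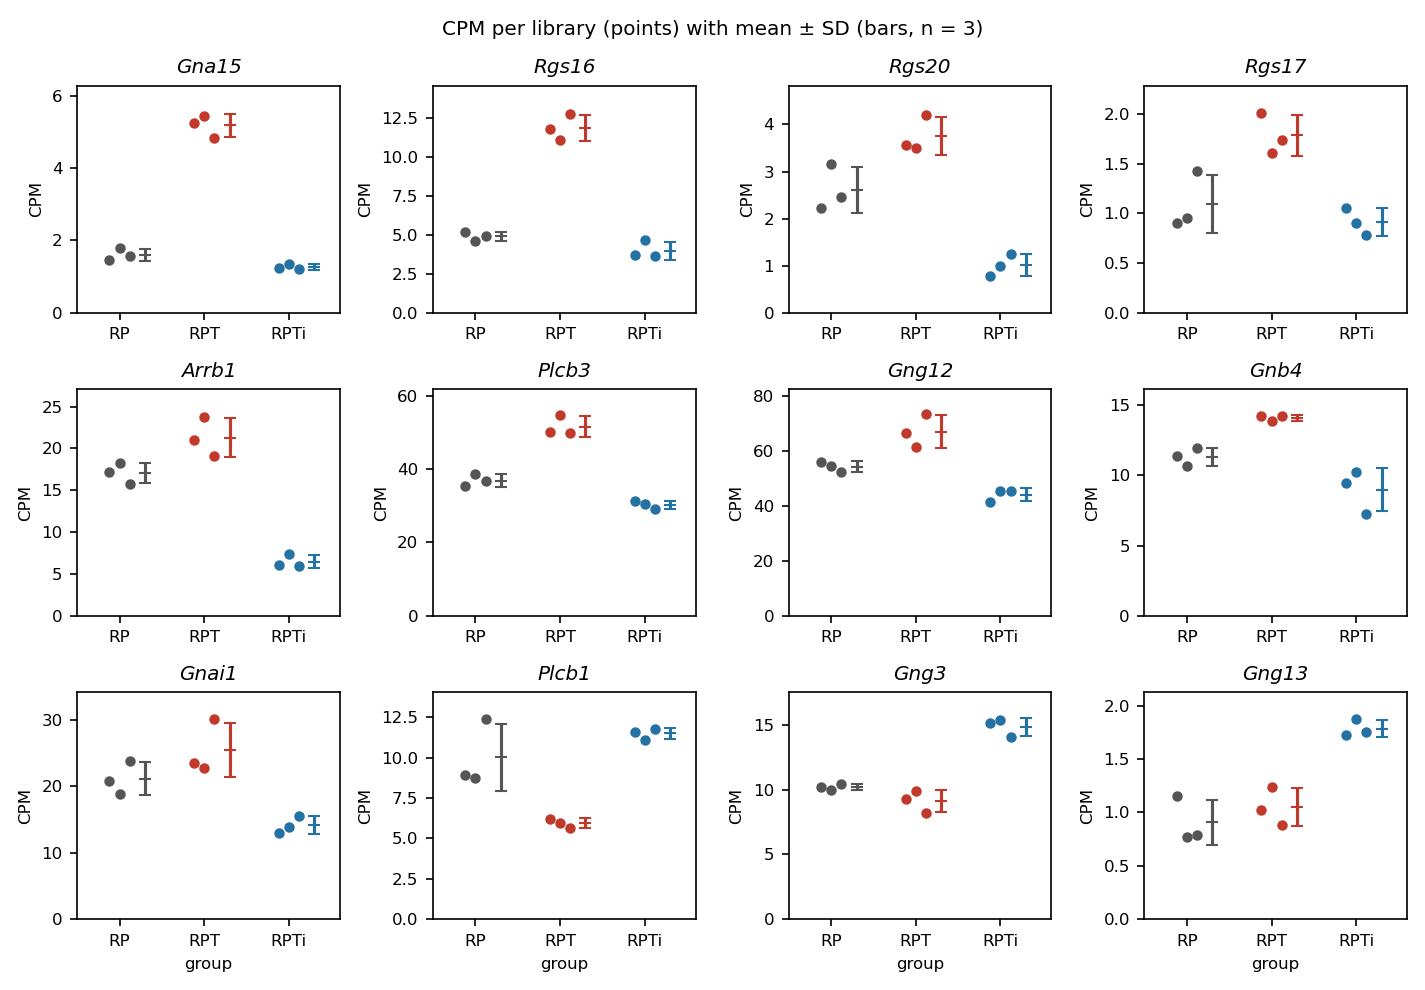
CPM (y axis, from 0) in each library of RP, RPT and RPTi (x axis) for 12 members, with bars for mean ± SD (n = 3). The RPT points of Gna15 and Rgs16 stand above all others, those of Plcb1 stand below, and the RPTi points of Rgs20, Arrb1 and Gnai1 stand below both other groups.

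Plcb3 and Plcb1, the most abundant phospholipase C beta genes, changed in opposite directions from RP to RPT and from RPT to RPTi. Plcb3 measured 35.3, 38.6 and 36.6 CPM in RP, 49.99, 54.9 and 49.9 CPM in RPT, and 31.2, 30.4 and 29.2 CPM in RPTi. Its groups did not overlap, with a rise of 0.49 from RP to RPT (SE 0.07, adjusted p = 0.00021), a log2 fold change of -0.77 from RPT to RPTi (SE 0.07, adjusted p = 2.06e-06) and a difference of -0.28 between RPTi and RP (SE 0.07, adjusted p = 0.0106). Plcb1 ran the other way, at 8.91, 8.76 and 12.4 CPM in RP, 6.22, 5.94 and 5.64 CPM in RPT, and 11.6, 11.1 and 11.8 CPM in RPTi. All RPT libraries lay below the others, with a log2 fold change of -0.76 from RP (SE 0.13, adjusted p = 0.00101), and RPTi rose above RPT by 0.95 (SE 0.13, adjusted p = 8.95e-05). RP and RPTi differed by 0.20 (SE 0.13, adjusted p = 0.293), and by 0.38 without RP replicate 3, the highest RP library (adjusted p = 0.0268).

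As a share of the summed FPKM of Plcb1 to Plcb4, Plcb3 held 74.8 to 80.9% in RP, 87.2 to 89.5% in RPT, then 70.8 to 73.0% in RPTi. Plcb1 held 14.1 to 19.6% in RP, 7.48 to 8.37% in RPT, then 20.6 to 22.0% in RPTi. Neither share overlapped between the 3 groups. Plcb4, at 0.644 FPKM, was called higher in RPTi than in RPT at 0.55 (SE 0.19, adjusted p = 0.0314), and the call was lost without RPT replicate 2 or 3 or RPTi replicate 1 or 3 (adjusted p 0.0707 to 0.109) and with libraries scaled by totals alone or on log2 FPKM (adjusted p 0.0586 to 0.0734). Its difference of -0.38 between RPT and RP (adjusted p = 0.15) passed without RPT replicate 1 (adjusted p = 0.0375).

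**Figure D4:**
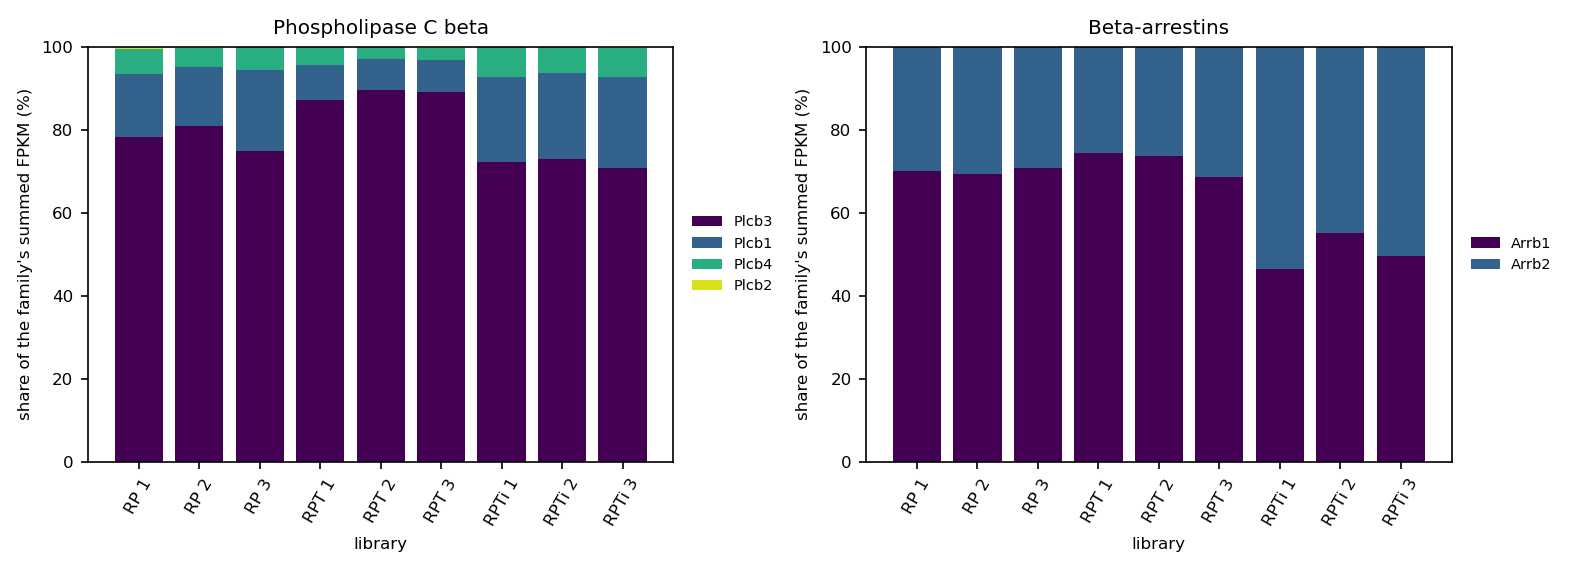
Share of the summed FPKM (y axis, %) of each phospholipase C beta gene (left) and of each β-arrestin gene (right) in the 9 libraries (x axis). Plcb3 takes 87.2 to 89.5% in RPT, and Arrb1 drops to 46.5 to 55.2% in RPTi.

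The summed FPKM of the 17 RGS genes was 78.0 to 83.2 in RP, 85.8 to 96.6 in RPT, then 83.1 to 87.9 in RPTi. Rgs19, Rgs3 and Rgs10 made up most of it in every group, Rgs19 with 38.4 to 45.4%. Rgs19 (RZ family, acting on Gαi) measured 45.9, 45.7 and 42.5 CPM in RP, 43.6, 47.3 and 43.3 CPM in RPT, and 47.4, 53.0 and 50.1 CPM in RPTi. The RPTi libraries lay above the others by a log2 fold change of 0.16 from RPT (SE 0.07, adjusted p = 0.0811), which passed without RPT replicate 2 (adjusted p = 0.0461) and with the replicate block (adjusted p = 0.0297). Rgs3, an R4 family member, measured 116, 122 and 107 CPM in RP, 129, 136 and 114 CPM in RPT, and 125, 135 and 131 CPM in RPTi. Its RP and RPT libraries overlapped, and its differences from RP were 0.13 in RPT (SE 0.07, adjusted p = 0.203) and 0.18 in RPTi (SE 0.07, adjusted p = 0.104). Both passed without RPT replicate 3 (adjusted p = 0.036 and 0.0414), and the second in the 2 groups alone and with the replicate block (adjusted p 0.0201 to 0.0491). Rgs10, of the R12 family, measured 12.3, 12.5 and 11.2 CPM in RP, 13.7, 16.7 and 12.1 CPM in RPT, and 14.4, 13.1 and 13.3 CPM in RPTi. RP and RPT overlapped, at 0.24 (SE 0.11, adjusted p = 0.133), which passed without RPT replicate 3 (adjusted p = 0.0313).

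The RGS genes that changed were scarcer ones. Rgs16, an R4 family member acting on Gαi and Gαq, measured 5.16, 4.59 and 4.94 CPM in RP, 11.8, 11.1 and 12.7 CPM in RPT, and 3.67, 4.65 and 3.60 CPM in RPTi. All RPT libraries lay far above the others, with a rise of 1.27 from RP (SE 0.12, adjusted p = 8.54e-06) and a log2 fold change of -1.58 from RPT to RPTi (SE 0.13, adjusted p = 6.54e-07). RPTi overlapped with RP, at -0.30 (SE 0.13, adjusted p = 0.107), though that difference passed without RPTi replicate 2 (-0.43, adjusted p = 0.0398). Its share of the RGS FPKM was 2.24 to 2.61% in RP, 4.71 to 6.12% in RPT, then 1.67 to 2.09% in RPTi.

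Rgs20 and Rgs17, RZ family members that act on Gαz and Gαi, fell from RPT to RPTi. Rgs20 measured 2.22, 3.16 and 2.46 CPM in RP, 3.56, 3.50 and 4.21 CPM in RPT, and 0.779, 1.00 and 1.256 CPM in RPTi. Its groups did not overlap, with a log2 fold change of -1.89 from RPT to RPTi (SE 0.22, adjusted p = 2.28e-05) and of -1.36 from RP to RPTi (SE 0.23, adjusted p = 0.000843). The difference of 0.53 between RPT and RP (SE 0.21, adjusted p = 0.0747) passed without RP replicate 2 (adjusted p = 0.0486) and with voom or on log2(FPKM + 1) (adjusted p 0.0243 to 0.0318). Rgs17 measured 0.904, 0.953 and 1.43 CPM in RP, 2.01, 1.61 and 1.74 CPM in RPT, and 1.06, 0.904 and 0.782 CPM in RPTi. RPT lay above both, and Rgs17 fell by 0.97 from RPT to RPTi (SE 0.26, adjusted p = 0.0088). Its difference of 0.71 between RPT and RP (SE 0.25, adjusted p = 0.0501) passed without RP replicate 3 (adjusted p = 0.024) and under 6 other settings (adjusted p 0.0202 to 0.0474): DESeq2 size factors, library totals alone, the filter at 1 CPM, voom and both log2 FPKM fits.

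Rgs14, an R12 family member that also binds GDP-bound Gαi, lies under the mean level set for full values and is given here after its values were seen. It measured 1.04, 0.923 and 0.740 CPM in RP, 1.39, 1.83 and 1.52 CPM in RPT, and 0.473, 0.323 and 0.503 CPM in RPTi. The groups did not overlap, and it fell by 1.85 from RPT to RPTi (SE 0.28, adjusted p = 0.000195). Its rise of 0.80 from RP to RPT (SE 0.26, adjusted p = 0.0357) was lost without any one of the RP or RPT libraries (adjusted p 0.0504 to 0.12) and with DESeq2 or no filter (adjusted p 0.0529 to 0.0594). Its difference of -1.05 from RP to RPTi (SE 0.29, adjusted p = 0.0195) was lost without RP replicate 1 or RPTi replicate 2 (adjusted p 0.0744 to 0.0793).

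The remaining tested RGS genes passed no test. Rgs12 was at 4.19 FPKM and Rgs2, which acts on Gαq, at 2.39 FPKM, while Rgs4 and Rgs8 were at 0.167 and 0.116 FPKM. Rgs9, the highest R7 family member, measured 0.181, 0.208 and 0.370 CPM in RP, 0.523, 0.155 and 0.457 CPM in RPT, and 0.362, 0.226 and 0.112 CPM in RPTi. Its groups overlapped throughout, with log2 fold changes of 0.59 (SE 0.53, adjusted p = 0.451), -0.70 (SE 0.55, adjusted p = 0.334) and -0.11 (SE 0.57, adjusted p = 0.912). Rgs22 measured 1.51, 0.566 and 1.35 CPM in RP, 0.889, 1.11 and 1.098 CPM in RPT, and 1.00, 1.58 and 1.23 CPM in RPTi. It overlapped in all groups too, with log2 fold changes of -0.16 (SE 0.34, adjusted p = 0.765), 0.30 (SE 0.34, adjusted p = 0.521) and 0.13 (SE 0.33, adjusted p = 0.806).

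Grk2, the receptor kinase recruited by free βγ, measured 71.9, 75.4 and 64.7 CPM in RP, 82.4, 86.1 and 77.2 CPM in RPT, and 87.1, 89.7 and 85.3 CPM in RPTi. RP lay below both thrombin groups, with a rise of 0.31 to RPTi (SE 0.07, adjusted p = 0.00735). Its rise of 0.21 to RPT (SE 0.07, adjusted p = 0.0385) was lost without RP replicate 1 or 3, RPT replicate 1 or 2, or any RPTi library (adjusted p 0.0528 to 0.144), and when only these 2 groups were fitted (adjusted p = 0.074). Grk6, at 13.2 FPKM, rose from RP to RPT by 0.39 (SE 0.09, adjusted p = 0.00709) and fell by 0.46 from RPT to RPTi (SE 0.09, adjusted p = 0.0015). Grk5, at 8.74 FPKM, was called higher in RPTi than in RPT at 0.31 (SE 0.10, adjusted p = 0.019), which was lost without RPT replicate 2 or RPTi replicate 1 or 3 (adjusted p 0.0508 to 0.0651) and with libraries scaled by totals alone or on log2 FPKM (adjusted p 0.0606 to 0.0689). Grk4, at 2.13 FPKM, passed no test.

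Arrb1, which encodes β-arrestin 1, had the smallest adjusted p of the members, in the comparison of RPTi with RPT. It measured 17.1, 18.3 and 15.8 CPM in RP, 21.0, 23.7 and 19.1 CPM in RPT, and 6.07, 7.36 and 6.002 CPM in RPTi. The highest RPTi library lay far below the lowest library of either other group, with a log2 fold change of -1.72 from RPT (SE 0.11, adjusted p = 9.61e-08) and -1.40 from RP (SE 0.11, adjusted p = 2.47e-06). The rise of 0.32 from RP to RPT (SE 0.10, adjusted p = 0.0372) was lost without RP replicate 1 or 3, RPT replicate 1 or 2, or RPTi replicate 1 (adjusted p 0.0522 to 0.137), and on log2(FPKM + 0.1) (adjusted p = 0.0504). Arrb2, at 2.67 FPKM, passed no test, with differences of 0.16, -0.36 and -0.20 (adjusted p = 0.439, 0.0638 and 0.355), though it passed between RPTi and RPT with libraries scaled by totals alone or on log2 FPKM (adjusted p 0.0149 to 0.0256). Arrb1 held 69.3 to 70.9% of the β-arrestin FPKM in RP, 68.6 to 74.3% in RPT, then 46.5 to 55.2% in RPTi.

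Other genes around these proteins were counted from 6 lists, 65 rows in all, of which 60 were tested. From RP to RPT 9 rose and 14 fell (38.3% called, against 28.9% of all genes), from RPT to RPTi 14 rose and 13 fell (45% against 41.5%), and from RP to RPTi 8 rose and 10 fell (30% against 24.2%). Of the 68 calls this makes, 28 were lost under at least 1 of the alternatives described in the closing section.

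F2r, which encodes PAR1, fell by 0.26 from RP to RPT (SE 0.08, adjusted p = 0.0237) and rose from RPT to RPTi by 0.50 (SE 0.08, adjusted p = 0.000174), from means of 55.6 ± 2.29, 46.5 ± 3.22 and 66.0 ± 4.83 CPM (SD, n = 3) in RP, RPT and RPTi. The first of these calls was lost without RP replicate 1 or RPT replicate 1 or 2 (adjusted p 0.0628 to 0.101). F2r was also called higher in RPTi than in RP, by 0.25 (adjusted p = 0.0317). That call was lost without any RP library or RPTi replicate 2 or 3 (adjusted p 0.0531 to 0.137). It was also lost with libraries scaled by totals alone or on log2 FPKM (adjusted p 0.0782 to 0.0896). F2rl1, which encodes the trypsin receptor PAR2, rose by 0.96 from RP to RPT (SE 0.12, adjusted p = 6.21e-05) and fell by 1.31 from RPT to RPTi (SE 0.12, adjusted p = 2.32e-06). F2rl2 was at 0.492, 0.814 and 0.397 CPM in the 3 groups and passed no test, except from RPT to RPTi without RPTi replicate 1 (adjusted p = 0.0243) and with libraries scaled by totals alone or on log2 FPKM (adjusted p 0.0286 to 0.045). F2rl3 had at most 8 reads in any library.

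Of the 10 adenylyl cyclases, 2 rose and 2 fell from RP to RPT (40% called, against 28.9% of all genes), and 5 rose and 3 fell from RPT to RPTi (80% against 41.5%). Adcy1 rose from RPT to RPTi by 1.82 (SE 0.22, adjusted p = 2.36e-05), Adcy3 fell by 0.57 (SE 0.07, adjusted p = 5.07e-05) and Adcy8 fell by 1.29 (SE 0.20, adjusted p = 0.000176). Of the 16 phosphodiesterase and protein kinase A genes tested, 2 rose and 6 fell from RP to RPT (50% called, against 28.9%), and 5 rose and 6 fell from RPT to RPTi (68.8% against 41.5%). Pde3b fell by 0.73 (SE 0.14, adjusted p = 0.00176) and then rose by 1.09 (SE 0.14, adjusted p = 4.09e-05) in these 2 comparisons. Both lists thus moved in both directions.

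Downstream of phospholipase C, 11 genes of the calcium and protein kinase C branch were tested, and 3 rose and 1 fell from RP to RPT (36.4% called, against 28.9% of all genes), while none rose and 3 fell from RPT to RPTi (27.3% against 41.5%). Itpr3, an inositol trisphosphate receptor, was at 395 ± 27.8, 530 ± 29.8 and 288 ± 11.2 CPM (SD, n = 3) in RP, RPT and RPTi, with a rise of 0.42 (SE 0.07, adjusted p = 0.000377) and a log2 fold change of -0.88 (SE 0.07, adjusted p = 3.53e-07). Itpr1, its relative, fell by 0.74 in RPT (SE 0.08, adjusted p = 2.1e-05) and fell by 0.70 in RPTi (SE 0.08, adjusted p = 4.35e-05), both against RP.

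Gpsm1, which encodes a receptor-independent regulator that binds GDP-bound Gαi, was at 87.2 ± 3.002 CPM in RP, 50.6 ± 3.92 CPM in RPT and 147 ± 2.85 CPM in RPTi (SD, n = 3). It fell by 0.79 from RP to RPT (SE 0.07, adjusted p = 2.88e-06) and rose by 1.54 from RPT to RPTi (SE 0.07, adjusted p = 3.65e-09). Of the 9 genes on its list of chaperones and receptor-independent regulators, none rose and 2 fell in the first comparison (22.2% called, against 28.9% of all genes), and 1 rose and none fell in the second (11.1% against 41.5%).

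Markers of other cell types were also summed. Endothelial markers reached 1.64 to 2.35 CPM in RP, 2.93 to 4.37 CPM in RPT and 1.71 to 2.11 CPM in RPTi. Cdh5 and Emcn had no more than 10 reads in any library. Of the 6 endothelial markers, 2 were tested, and they moved in opposite directions. From RP to RPT, Plvap was called higher (log2 fold change 1.43) and the other was not called (-0.51). From RPT to RPTi, Plvap was called lower (-1.80), while the other moved up and was not called. Pericyte and smooth muscle markers reached 557 to 616 CPM in RP, 576 to 676 CPM in RPT and 1262 to 1286 CPM in RPTi, most of it Cspg4, which cartilage cells also express. All 6 were tested. From RP to RPT, Des rose and Notch3 fell (33.3% called, against 28.9% of all genes). From RPT to RPTi, Cspg4, Myh11 and Notch3 rose (50% against 41.5%). Against RP, Cspg4, Des and Myh11 were higher in RPTi and Abcc9 was lower (66.7% against 24.2%). Blood cell and platelet markers were at 0.555 to 0.859, 0.396 to 0.601 and 0.417 to 0.893 CPM. The part of such cells in the members' differences was not tested.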

How the data were processed

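Gene-level mRNA sequencing was analysed for 9 libraries, 3 per group, grouped by their titles. The authors deposited raw counts per gene and FPKM in 1 table. Per the submitters' processing notes, HTSeq 0.11.2, HISAT2 and DESeq2 1.26.0 were used with the build Rnor_6.0, in roles that are not given. The strand setting is not given in the sources used here.

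Counts were tested with edgeR 4.0.16 in R 4.3.3 (filterByExpr with a minimum count of 10 and total of 15, TMM, glmQLFit and glmQLFTest, 1 coefficient per group over all 9 libraries), with Benjamini-Hochberg adjustment over 13856 genes. The filter removed 0.0259% of the counts. TMM factors were 0.968 to 1.03. Fold changes used a prior count of 0.125. Each SE was derived from the test, as the absolute log2 fold change divided by the square root of the quasi-likelihood F statistic. The pipeline was tested on simulated counts.

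Members and lists were chosen with earlier results of these data known. Full values are given for members called with at least a 1.5-fold change and a mean of at least 1 CPM, and for the most abundant member by FPKM of each role. Gnaq, Gna14, Gnb3 and Rgs14 fall outside this rule, and their library values were added after they were seen. Of the other pathway genes, up to 3 per list with the smallest p are named, plus the thrombin receptors. Values for 1 of the pathway lists are not reported here. Of the listed markers, 10 had no row in the table. Promoter sequences are from RefSeq (GRCr8). Arrb1 and Rgs20 had no entry there. Sequences of Rgs14, Gng12, Gng3 and Gnai1 were also looked up and are not printed.

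Alternatives were DESeq2 1.42.0 and its size factors, library totals alone, other filters, limma 3.58.1 (voom, and log2(FPKM + 1) or log2(FPKM + 0.1)), the 2 compared groups alone, a replicate block, and leaving out each library. Intervals and limits from counts cover counting error only.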

Additional observations from a re-analysis of the deposited data

How the results depend on the processing

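Under 19 alternatives, no member or pathway difference that was called changed sign. Of the 53 member calls over the 3 comparisons, 38 passed under every alternative in which the gene was tested (18 for Gna14, which the filter at 1 CPM removed): 9 of 14 between RPT and RP, 18 of 24 between RPTi and RPT, and 11 of 15 between RPTi and RP. The 8 members higher in RPTi than in RPT became 5 with library totals alone, on log2(FPKM + 1) and on log2(FPKM + 0.1). The cause was not tested. Without TMM, 38.4% of all called genes were higher in RPTi than in RPT, against 49.2% with it, and 36.6% against 49.1% between RPTi and RP.

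Leaving out each library gave 6 to 10 members higher and 3 to 5 lower in RPT than in RP, 5 to 9 higher and 14 to 16 lower in RPTi than in RPT, 4 to 6 higher and 9 to 12 lower in RPTi than in RP, and 22 to 27 by the F test. Over all genes the calls ranged from 2889 to 3957, 4733 to 5893 and 2274 to 3992 in these comparisons, with fewer libraries in each fit.

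With the replicate block, 7 members were higher in RPTi than in RP, against 4 without it. Over all genes, the block gave 5074 calls between RPT and RP, against 3999 without it. It gave 6698 against 5745 between RPTi and RPT, and 4689 against 3352 between RPTi and RP. The labels do not say whether the numbers pair the libraries. Deviations of same-numbered libraries correlated at -0.114 to 0.124 over 9 pairs, and of others at -0.161 to 0.143 over 18. These correlations weight all tested genes alike, those with few reads included, so they cannot decide whether libraries are paired. Members with few reads, such as Gnb3 and Gna14, are limited by depth.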
